A study of Homo sapiens with 3 samples.

Results

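The translation initiation factor genes are the genes whose symbol starts with EIF followed by a digit. They were chosen by symbol among probe sets (groups of short array probes for 1 transcript) paired with exactly 1 gene symbol, leaving out pseudogene-like symbols that end in P and digits and symbols with a hyphen. This gave 47 genes of 19775, read by 119 probe sets. The largest differences were on the low side of vehicle, in EIF3C, EIF5A and EIF3B, and on the high side, in EIF1AX and EIF2S3. This held for both agents, but both were set against the same 1 vehicle array, and EIF3C rests on 1 probe set.

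RNA came from MDA-MB-231, an established human breast cancer line usually classed as lacking oestrogen receptor alpha. Medium with 10% charcoal-stripped serum, poor in steroids, was used for 4 h, and each agent was then given for 3 h. The vehicle array holds cells given 0.1% ethanol, the estradiol array cells given 1 µM of this oestrogen, and the ERα17p array cells given 1 µM of a peptide taken from the receptor's sequence. Each group is 1 array of 1 cell line, the sources used here do not give the peptide's solvent, and there are no replicates, so every value describes these 3 arrays and has no test. The deposited values are log2 values, each probe set centred, as their values show, on an undescribed reference, so 0 is that reference and not an absence of signal. Levels of different genes therefore cannot be compared, and the markers of the cell line could not be checked.

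Translation initiation brings a ribosome to the start codon of an mRNA. eIF2 carries the initiator tRNA with GTP and is recharged by eIF2B, and kinases that phosphorylate its alpha subunit slow this step under stress. eIF4E binds the mRNA cap, eIF4G is the scaffold that joins it to the helicase eIF4A, and eIF3 bridges them to the small ribosomal subunit. eIF1, eIF1A and eIF5 select the start codon, and eIF5B joins the large subunit. Many of these genes are driven by growth signals, and eIF4E and eIF3 subunits are often overexpressed in breast cancer.

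Stretches of 250 bases upstream of the start site are given for 6 genes, 3 that were lower and 3 that were higher than vehicle on both treated arrays. Each has a single listed start. The 6 are a selection: EIF3C, EIF2B5, EIF2AK3 and EIF2A also have a single listed start and passed 1.5-fold against vehicle, and are not shown. The stretches are from RefSeq (GRCh38.p14), run 5′ to 3′ on the gene's strand and end just before the start. Capitals mark matches, on either strand, to the E-box CACGTG, the GC box GGGCGG, the CCAAT box (CCAAT) or the ETS-type motif CGGAAG. The first 3 belong to genes that were lower than vehicle.
EIF3B, chr7:2354577-2354826, plus strand: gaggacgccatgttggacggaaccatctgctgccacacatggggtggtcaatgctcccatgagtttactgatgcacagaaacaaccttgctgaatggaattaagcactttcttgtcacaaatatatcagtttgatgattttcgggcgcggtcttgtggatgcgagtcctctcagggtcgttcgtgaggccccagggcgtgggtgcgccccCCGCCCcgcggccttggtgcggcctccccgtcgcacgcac
EIF3K, chr19:38618938-38619187, plus strand: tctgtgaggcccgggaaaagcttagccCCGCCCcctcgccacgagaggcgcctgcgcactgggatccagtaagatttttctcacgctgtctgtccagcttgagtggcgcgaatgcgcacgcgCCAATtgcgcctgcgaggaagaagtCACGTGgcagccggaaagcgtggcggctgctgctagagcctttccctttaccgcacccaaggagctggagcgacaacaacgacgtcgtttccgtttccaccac
EIF5B, chr2:99337139-99337388, plus strand: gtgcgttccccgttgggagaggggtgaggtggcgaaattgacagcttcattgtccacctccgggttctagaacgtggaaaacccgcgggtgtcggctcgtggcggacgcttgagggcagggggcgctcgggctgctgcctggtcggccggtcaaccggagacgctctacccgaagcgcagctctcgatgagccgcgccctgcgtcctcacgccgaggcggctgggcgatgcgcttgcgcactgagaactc
The next 3 belong to genes that were higher.
EIF1AX, chrX:20141839-20142088, minus strand: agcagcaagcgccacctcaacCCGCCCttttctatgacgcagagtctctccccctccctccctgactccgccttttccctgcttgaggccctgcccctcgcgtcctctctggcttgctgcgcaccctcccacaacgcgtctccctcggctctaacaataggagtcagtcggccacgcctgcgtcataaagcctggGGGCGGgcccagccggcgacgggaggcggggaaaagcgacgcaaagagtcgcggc
EIF2S3, chrX:24054706-24054955, plus strand: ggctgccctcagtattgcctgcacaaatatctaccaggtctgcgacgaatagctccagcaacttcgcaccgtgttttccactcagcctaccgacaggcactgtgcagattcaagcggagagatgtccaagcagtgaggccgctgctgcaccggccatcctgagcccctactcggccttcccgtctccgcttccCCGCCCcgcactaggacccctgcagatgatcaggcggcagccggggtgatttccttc
EIF5A2, chr3:170908638-170908887, minus strand: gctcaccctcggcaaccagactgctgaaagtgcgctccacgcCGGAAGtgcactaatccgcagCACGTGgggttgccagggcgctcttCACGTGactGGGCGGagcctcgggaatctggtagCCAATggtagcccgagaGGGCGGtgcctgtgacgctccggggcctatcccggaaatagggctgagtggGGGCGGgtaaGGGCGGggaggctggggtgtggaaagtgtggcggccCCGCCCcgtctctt

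Matches occurred on both sides. The GC box was in EIF3B and EIF3K on the low side and in EIF1AX, EIF2S3 and EIF5A2 on the high side. The E-box, the site bound by MYC, occurred once in EIF3K and 2 times in EIF5A2, and the EIF5B stretch held none of the motifs. Of the genes not shown, EIF3C and EIF2B5 on the low side also held none. On the high side EIF2AK3 and EIF2A held the CCAAT box and the ETS-type motif, but no GC box or E-box. Upstream stretches were listed for 40 of the 47 genes, with 54 start sites. The E-box was in 11 of these 54 stretches (20.4%), against 6.34% of all 35116 listed stretches. These belong to 27305 genes and were not limited to the 19775 genes read by the arrays. The GC box was in 63.0% against 42.6%, the ETS-type motif in 29.6% against 16.5% and the CCAAT box in 37.0% against 32.0%. Initiation factor stretches were also richer in CG pairs, with a median of 23 against 11. The AP-1 site TGACTCA was in 3 stretches (5.56%, against 4.2% of all listed stretches). An oestrogen response element with no mismatch (GGTCA, any 3 bases, TGACC) was in 0 of 54 and in 0.0399% of all stretches. Of 11 stretches from 6 genes at least 1.5-fold lower than vehicle, 1 held the E-box, 5 the GC box, 4 the CCAAT box and 1 the ETS-type motif. Most of these 11 are start sites of EIF5A alone. That gene gave most of their GC box and CCAAT box matches and the ETS-type match. Of 8 stretches from 6 genes at least 1.5-fold higher, 1 held the E-box, 4 the GC box, 4 the CCAAT box and 3 the ETS-type motif. EIF4E3 has several of these 8, so stretches are not separate genes in either count. Most stretches with an E-box or a GC box belonged to genes within 1.5-fold of vehicle, but so did most of the 54 stretches. This does not show whether a motif goes with a difference. Start sites of 1 gene can overlap, and a match is a description of letters only.

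The vehicle array stood apart from both treated arrays in this gene group. The 47 gene values ran from -1.01 to 1.78 with vehicle (SD 0.538 over genes), from -0.38 to 0.27 with estradiol (SD 0.142) and from -0.18 to 0.31 with ERα17p (SD 0.111). The vehicle array was also the widest over all genes, with an SD of 0.402, against 0.212 with estradiol and 0.195 with ERα17p. On the vehicle array 11 of the 47 lay at least 1.5-fold from the reference (23.4%, against 10.9% of all genes). On each treated array 0 of 47 did, against 1.80% and 1.13% of all genes. Labelling spikes, bacterial RNAs added before labelling, were 2.03 and 2.04 higher (log2) on the estradiol and ERα17p arrays than on the vehicle array, and hybridisation spikes were at -0.74 and -0.93. Between the treated arrays these spikes differed by 0.00 and -0.15. The part of these array differences in the values below was not tested.

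Set against vehicle, 5 of 47 initiation factor genes were at least 1.5-fold higher with estradiol (10.6%), where 10.4% of all genes were, and 7 were at least 1.5-fold lower (14.9%), where 8.25% were. With ERα17p 6 were higher (12.8%, against 9.27%) and 7 lower (14.9%, against 8.53%). The shares on the high side of the estradiol comparison were near those of all genes. At 2-fold, 2 genes were higher and 4 lower with estradiol (3.82% and 2.14% of all genes), and 1 was higher and 4 lower with ERα17p (3.21% and 2.44% of all genes). The medians of the 47 differences were 0.04 for estradiol and -0.02 for ERα17p, beside 0.00 over all genes in both, so the group as a whole did not lie to 1 side. The spread of the 47 differences (SD 0.628 and 0.603) was wider than that of all genes (0.516 and 0.503).

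**Figure D1:**
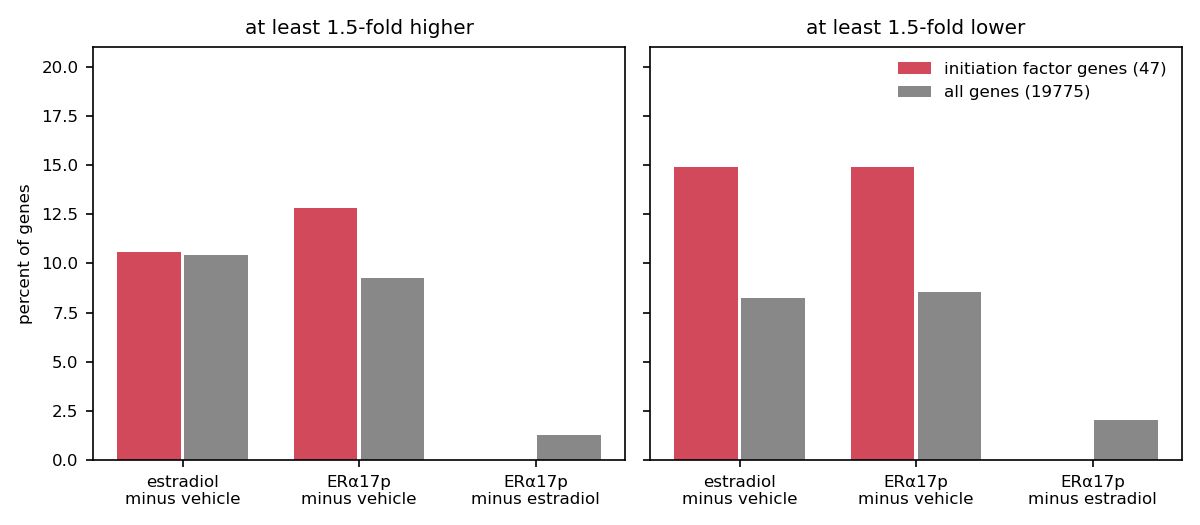
Percent of the 47 initiation factor genes (red) and of all 19775 genes (grey) that differed by at least 1.5-fold in each comparison, higher on the left and lower on the right. The red bars on the low side stand at 14.9% in both comparisons with vehicle, beside 8.25% and 8.53% of all genes.

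In all 13 of the 47 genes passed 1.5-fold in at least 1 comparison with vehicle, 12 of them in both and EIF2A with ERα17p alone. Over all genes, 4571 of 19775 passed in at least 1 of these comparisons, a share not far below that of the group. No count over all genes is given here for passing in both. Both comparisons use the same vehicle array, so the second is no repeat of the first. Both treated values lay on the same side of vehicle in all 13, which choosing genes by their difference from 1 shared array favours. In 0 of them did a treated array lie 1.5-fold from the reference. Among all 4571 genes past 1.5-fold in either comparison, 89.0% likewise had both treated arrays within 1.5-fold of the reference. With 1 vehicle array in both comparisons, its part in the 13 differences cannot be told apart from that of the agents.

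**Figure D2:**
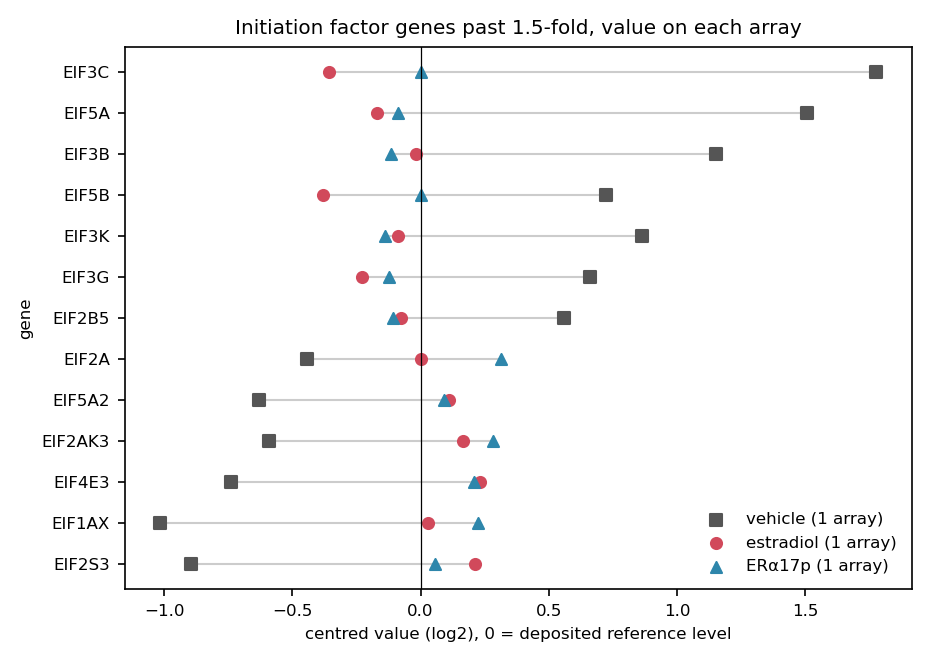
Centred log2 value on the vehicle (square), estradiol (circle) and ERα17p (triangle) array for the 13 initiation factor genes past 1.5-fold against vehicle, 1 array per group. The treated arrays lie between -0.38 and 0.31, and the genes shown were chosen for their difference from the vehicle array.

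Scanning and subunit joining factors split between EIF5B and EIF1AX. EIF5B, the GTPase that joins the ribosomal subunits, stood at 0.72 with vehicle, -0.38 with estradiol and 0.00 with ERα17p. The log2 difference from vehicle was thus -1.10 with estradiol (2.15-fold lower) and -0.72 with ERα17p (1.65-fold lower). Its 6 probe sets did not move as 1: with estradiol they ran from -2.77 to 0.64, with 2 of them above 0. Whether these probe sets read different transcript ends is not known from the files.

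EIF1AX encodes eIF1A, which with eIF1 holds the scanning ribosome open. Its value was -1.01 with vehicle, 0.03 with estradiol and 0.22 with ERα17p. The gene was 1.04 higher with estradiol (2.06-fold) and 1.24 higher with ERα17p (2.36-fold). All 4 of its probe sets were above vehicle in both comparisons, 3 of them by 1.01 or more and the fourth by 0.13 and 0.47.

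Of the 7 genes of this role, 1 was thus higher and 1 lower in each comparison (14.3% each way). Over all genes, 10.4% were higher and 8.25% lower with estradiol, and 9.27% and 8.53% with ERα17p. The other 5 genes of this role were within 1.5-fold. EIF1, the factor that guards against wrong start codons, differed by 0.05 and -0.07, although 1 of its 7 probe sets stood at -1.60 and -1.33. EIF5, the GTPase activator of eIF2, differed by -0.17 and 0.19. Its 5 probe sets spread from -1.27 to 1.03 with estradiol. EIF1B, a close paralogue of EIF1, was at 0.19 in both comparisons, and the eIF1A-like EIF1AD at -0.27 and -0.30. EIF1AY, the Y-linked counterpart of EIF1AX, was at 0.31 and -0.03. The centred values do not show whether this line expresses EIF1AY at all, so its differences may be background.

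In eIF2, the carrier of the initiator tRNA, the gamma subunit gene stood away from the alpha and beta genes. EIF2S3, the gamma subunit that binds GTP and the tRNA, was at -0.89 with vehicle, 0.21 with estradiol and 0.06 with ERα17p. It was 1.11 higher with estradiol (2.15-fold) and 0.95 higher with ERα17p (1.93-fold), and its 3 probe sets were between 0.89 and 1.54 in both comparisons. EIF2S1, the alpha subunit that stress kinases phosphorylate, differed by -0.18 and -0.09, and EIF2S2, the beta subunit, by -0.12 and -0.32. With 1 probe set of EIF2S1 at -1.91 and -1.44 and another at 0.17 and 0.36, the alpha value rests on the median of discordant probe sets. EIF2S3 and EIF1AX, the 2 genes highest above vehicle with estradiol, are both on the X chromosome.

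EIF2A, an unrelated factor that can deliver initiator tRNA without GTP, was at -0.44 with vehicle, 0.00 with estradiol and 0.31 with ERα17p. Its difference from vehicle was 0.44 with estradiol and 0.76 with ERα17p (1.69-fold), so it passed 1.5-fold with ERα17p alone. The direct difference between the treated arrays was 0.31, inside the limit. EIF2D, which also delivers tRNA by another route, was at 0.06 and 0.10.

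Of the 5 eIF2B genes, which encode the exchange factor that reloads eIF2 with GTP, EIF2B5 passed 1.5-fold. It made 20% of the list lower in each comparison, against 8.25% of all genes with estradiol and 8.53% with ERα17p. EIF2B5, the catalytic epsilon subunit, stood at 0.56 with vehicle, -0.08 with estradiol and -0.11 with ERα17p. Its difference was -0.63 with estradiol (1.55-fold lower) and -0.67 with ERα17p (1.59-fold lower), close to the limit of 0.58. The regulatory and helper subunits EIF2B1, EIF2B2, EIF2B3 and EIF2B4 were within -0.25 and 0.10 in both comparisons.

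All 4 genes for eIF2 alpha kinases had differences above 0 in both comparisons. Of all 19775 genes, 9968 were above 0 with estradiol and 9936 with ERα17p. In each comparison 1 of the 4 kinases was at least 1.5-fold higher (25%, against 10.4% and 9.27% of all genes). EIF2AK3 (PERK), the kinase of the endoplasmic reticulum stress response, was at -0.59 with vehicle, 0.16 with estradiol and 0.28 with ERα17p. It was 0.76 higher with estradiol (1.69-fold) and 0.87 higher with ERα17p (1.83-fold), but this is the mean of 1 probe set at 1.39 and 1.55 and another at 0.12 and 0.19. EIF2AK2 (PKR), which senses double-stranded RNA, was at 0.36 and 0.37, EIF2AK4 (GCN2), which senses amino acid lack, at 0.07 and 0.42, and EIF2AK1 (HRI), which senses haem lack, at 0.14 and 0.09. The 2 probe sets of EIF2AK1 lay on opposite sides of vehicle in both comparisons. The 3 probe sets of EIF2AK2 also lay on both sides, from -0.14 to 1.37 with estradiol and from -0.01 to 1.32 with ERα17p. Those of EIF2AK4 did so with estradiol, at -0.12 and 0.25.

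Subunits of eIF3, the largest initiation factor, made up 4 of the 7 genes lower than vehicle. Of 13 measured, 4 were at least 1.5-fold lower in each comparison (30.8%, against 8.25% of all genes with estradiol and 8.53% with ERα17p) and 0 higher (against 10.4% and 9.27%), with medians of -0.15 for estradiol and -0.20 for ERα17p. EIF3C stood at 1.78 with vehicle, -0.36 with estradiol and 0.00 with ERα17p, a difference of -2.13 (4.39-fold lower) and -1.78 (3.43-fold lower). After quantile normalisation, which gives the 3 arrays the same distribution of values, the EIF3C differences were -1.52 and -1.11. It is the largest of the 47, and it rests on 1 probe set of a gene with a near-identical copy, EIF3CL, to which it cannot be assigned with certainty. The 3 probe sets paired with both copies were not used.

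EIF3B, the subunit that holds eIF3g and eIF3i to the complex, rests on 6 probe sets. Its value was 1.15 with vehicle, -0.02 with estradiol and -0.12 with ERα17p, a difference of -1.17 (2.25-fold lower) and -1.27 (2.41-fold lower). All 6 probe sets were below vehicle in both comparisons, from -2.02 to -0.66 with estradiol and from -2.04 to -0.09 with ERα17p. The EIF3B differences were -0.76 and -0.88 after quantile normalisation, and -1.81 and -1.71 without probe sets of the kinds that match several transcripts.

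EIF3K, a small subunit that is dispensable in some organisms, was at 0.86 with vehicle, -0.09 with estradiol and -0.14 with ERα17p. All 4 of its probe sets were lower, and the gene was 1.93-fold lower with estradiol (-0.95) and 2.01-fold lower with ERα17p. EIF3G, an RNA-binding subunit, was at 0.66, -0.23 and -0.12, a difference of -0.89 (1.85-fold) and -0.78 (1.72-fold) on 1 probe set.

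The other 9 eIF3 genes were inside the limit in both comparisons. EIF3L was at -0.47 and -0.29, and EIF3D, a subunit that can itself bind the cap of some mRNAs, at -0.39 and -0.48. EIF3A, the large scaffold subunit, differed by -0.08 and 0.00, and EIF3E, EIF3F, EIF3H, EIF3I, EIF3J and EIF3M lay between -0.20 and 0.17. The eIF3 genes thus had unequal differences on these arrays. Among the low genes EIF3C and EIF3G rest on 1 probe set each. Probe sets of EIF3A, EIF3F and EIF3M lay on both sides of vehicle in both comparisons. The part of probe set behaviour in this was not tested. Grouped by position in the complex, a grouping made after the values were seen, the low genes were on both sides: EIF3B and EIF3G of the b, g and i module, and EIF3C and EIF3K of the module of a, c, e, f, h, k, l and m.

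**Figure D3:**
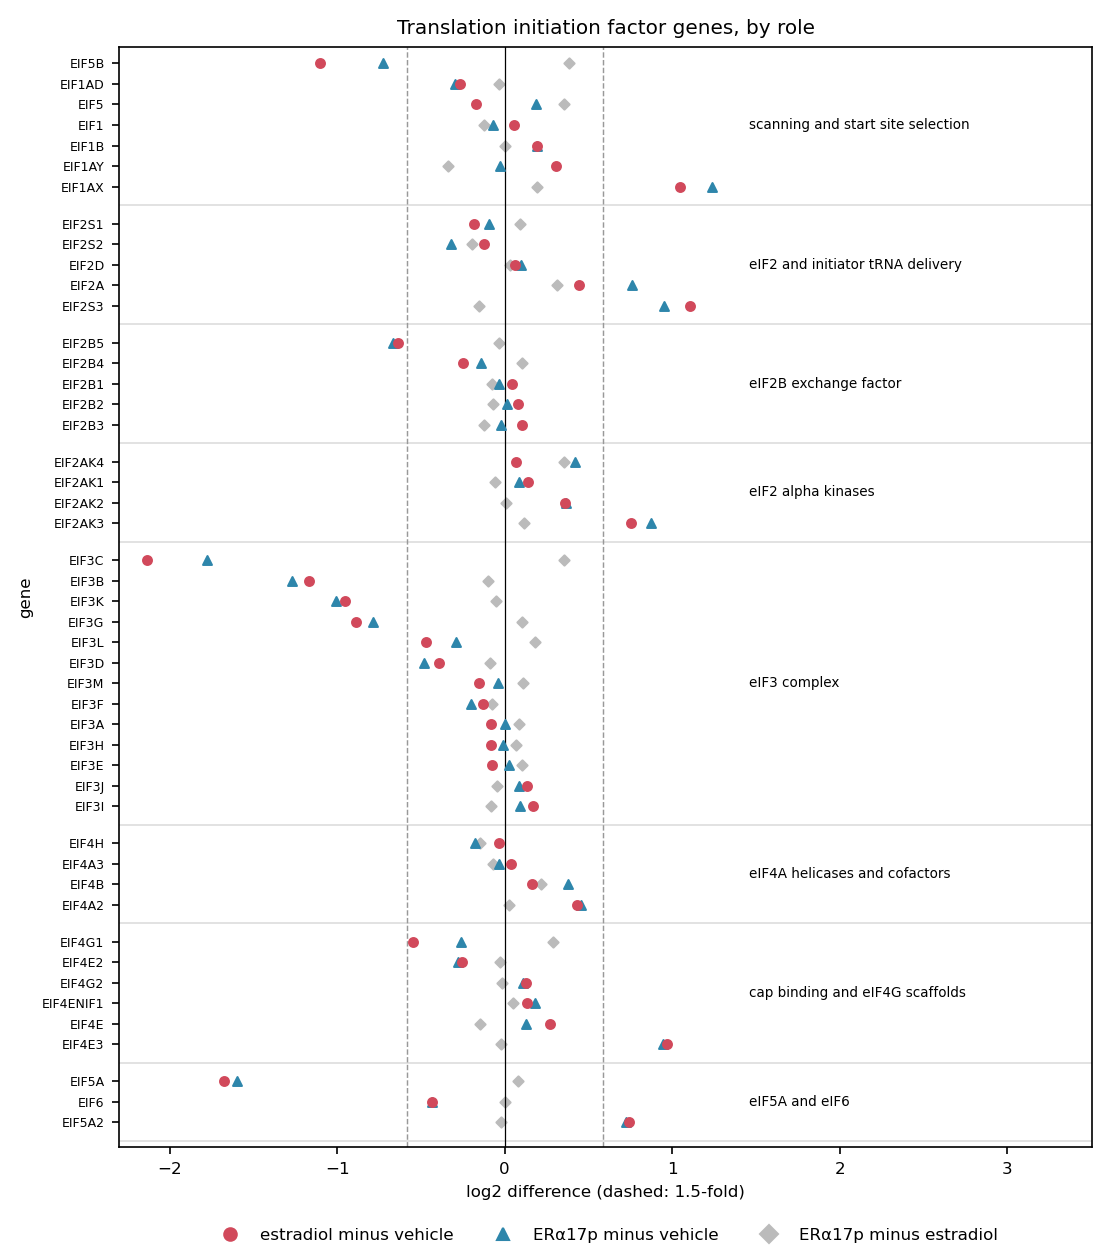
Log2 difference of each of the 47 initiation factor genes, by role: estradiol minus vehicle (circles), ERα17p minus vehicle (triangles) and ERα17p minus estradiol (diamonds), with dashed lines at 1.5-fold. The 4 lowest eIF3 genes lie left of the dashed line in both comparisons with vehicle, and all diamonds lie between -0.34 and 0.38.

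Of 6 cap-binding and scaffold genes and 4 helicase and cofactor genes, EIF4E3 alone passed 1.5-fold. In each comparison this made 16.7% of the first list and 0% of the second higher, against 10.4% of all genes with estradiol and 9.27% with ERα17p. EIF4E, the main cap-binding protein, was at 0.27 with estradiol and 0.13 with ERα17p, with its 5 probe sets from -1.14 to 1.23 and from -1.34 to 1.19. EIF4G1, the scaffold of the cap complex, was at -0.55 (1.46-fold), near the limit, and -0.26. Its relative EIF4G2, which lacks the eIF4E site, was at 0.13 and 0.11.

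EIF4E3, a cap-binding relative of eIF4E described as a competitor of it, was at -0.74 with vehicle, 0.23 with estradiol and 0.21 with ERα17p. It was 0.97 higher with estradiol (1.96-fold) and 0.95 higher with ERα17p (1.93-fold). All 4 probe sets were above vehicle, from 0.38 to 1.80 and from 0.10 to 1.70. EIF4E2, a relative that represses translation, was at -0.25 and -0.28, and EIF4ENIF1, which carries eIF4E into the nucleus, at 0.14 and 0.18.

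For the helicases, EIF4A2 was at 0.43 and 0.46 on 1 probe set, and EIF4A3, a core protein of the exon junction complex, at 0.04 and -0.03. The helicase cofactors EIF4B and EIF4H were at 0.17 and 0.38 and at -0.03 and -0.18. EIF4A1 has no value here because its 3 probe sets are paired with several symbols. EIF4G3, EIF4E1B and EIF5AL1 were not analysed here.

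The paralogues EIF5A and EIF5A2 lay on opposite sides of vehicle. EIF5A, which helps the ribosome through difficult peptide bonds and carries the modified lysine hypusine, was at 1.51 with vehicle, -0.17 with estradiol and -0.09 with ERα17p. Its difference was -1.68 with estradiol (3.20-fold lower) and -1.60 with ERα17p (3.02-fold lower). Its 3 probe sets were close together, between -1.70 and -1.56 and between -1.91 and -1.46, but all are of the kinds that match several transcripts. After quantile normalisation the EIF5A differences were -1.13 and -1.06.

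EIF5A2, the second hypusine-bearing gene and one amplified in some tumours, was at -0.63, 0.11 and 0.09 on the same arrays. It was 0.74 higher with estradiol (1.67-fold) and 0.72 higher with ERα17p (1.65-fold), with all 3 probe sets above vehicle, from 0.14 to 1.28 over both comparisons. EIF6, which keeps the ribosomal subunits apart, was at 0.32, -0.12 and -0.11, a difference of -0.44 and -0.43 on 1 probe set. The direct difference between the treated arrays was 0.08 for EIF5A, -0.02 for EIF5A2 and 0.00 for EIF6.

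Single probe sets often disagreed. Of 33 genes with at least 2 probe sets, 17 had them on both sides of vehicle in the estradiol comparison, and 17 in the ERα17p comparison. Of the 119 probe sets, 17 were at least 1.5-fold higher with estradiol (14.3%, against 14.1% of all named probe sets) and 28 lower (23.5%, against 11.4%). With ERα17p 20 were higher (16.8%, against 13.1%) and 28 lower (23.5%, against 11.0%). Probe sets of 1 gene are not independent of each other. Of the 13 genes past the limit, 3 rest on 1 probe set (EIF3C, EIF3G and EIF2A), and EIF5B had probe sets on both sides of 0. After quantile normalisation EIF2B5 (-0.48 and -0.52) was inside the limit in both comparisons, EIF2AK3 (0.58) and EIF5A2 (0.58) with estradiol, and EIF5A2 (0.57) and EIF5B (-0.50) with ERα17p. Measured from the deposited reference in place of the vehicle array, 0 of the 47 genes passed 1.5-fold on either treated array.

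**Figure D4:**
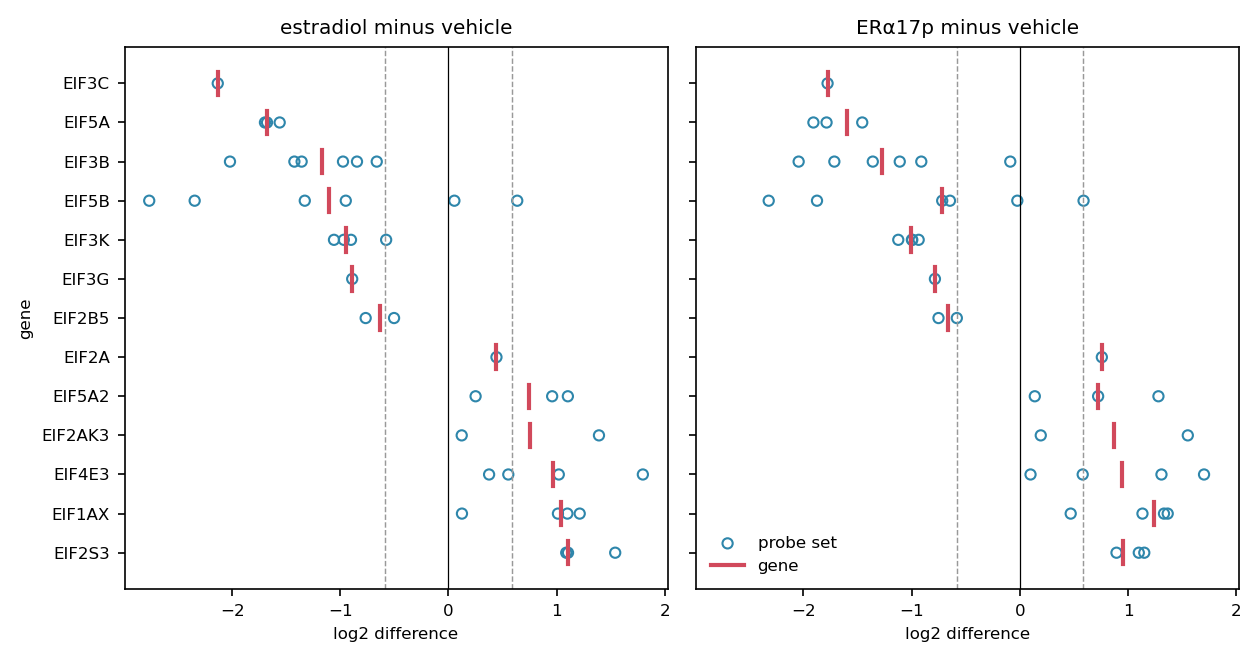
Log2 difference from vehicle of every probe set (open circles) and of the gene (red bar) for the 13 genes past 1.5-fold, for estradiol on the left and ERα17p on the right. Probe sets of EIF5A and EIF2S3 lie close together, while those of EIF5B spread from -2.77 to 0.64 with estradiol.

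Compared without the vehicle array, ERα17p and estradiol differed by at least 1.5-fold in 0 of the 47 genes, where 1.25% of all genes were higher and 2.06% lower on the ERα17p array. At those shares a list of this length holds few such genes or none, so the count is near the background. The differences of ERα17p from estradiol ran from -0.34 to 0.38 with a median of 0.00. EIF5B was the highest, at 0.38, then EIF5 (0.36), EIF3C (0.36) and EIF2AK4 (0.35). The SD of the 47 differences was 0.159, beside 0.253 over all genes. Of the member probe sets, 3 were at least 1.5-fold higher on the ERα17p array (2.52%) and 0 lower. They were 1 each of EIF5 (0.84), EIF4G1 (0.70) and EIF5B (0.61). No share over all probe sets was computed for this comparison.

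Other genes of translation and its control were taken from 8 lists. Of 50 measured genes, 8 passed 1.5-fold on the high side (16%, against 10.4% of all genes) and 7 on the low side (14%, against 8.25%) with estradiol. With ERα17p 8 passed on each side (16%, against 9.27% higher and 8.53% lower), with medians of -0.01 and -0.06. The eIF4E-binding proteins, which block eIF4E until the kinase mTOR releases it, were left out of the 47 genes by their symbols' ending. EIF4EBP1 was at -0.22 and -0.35, and EIF4EBP2 at 0.44 and 0.33.

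In the mTOR list 0 of 15 genes were higher in each comparison (against 10.4% and 9.27% of all genes) and 3 lower (20%, against 8.25% and 8.53%). MKNK2, a kinase of eIF4E, was at -0.69 and -0.92. TSC2, an inhibitor of mTOR, was at -0.61 and -0.80. RPS6KB2, an S6 kinase, was at -0.58 and -0.73, just inside the limit with estradiol, and the mTOR partner RPTOR at -0.60 and -0.01.

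The list around eIF2 phosphorylation had genes past 1.5-fold on both sides. Of 11 genes, 4 were higher (36.4%, against 10.4% of all genes) and 2 lower (18.2%, against 8.25%) with estradiol. With ERα17p 5 were higher (45.5%, against 9.27%) and 3 lower (27.3%, against 8.53%). The phosphatase subunits that reverse eIF2 phosphorylation lay apart: the stress-induced PPP1R15A was at -1.15 and -1.29, and the constitutive PPP1R15B at 0.84 and 1.07. SESN2, a stress-induced inhibitor of mTOR, was at -1.10 and -1.29, and IMPACT, an inhibitor of GCN2, at 1.47 and 0.96. ATF4, the factor whose translation rises when eIF2 is phosphorylated, was at -0.22 and -0.41.

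Among partners of the poly(A)-binding protein, 2 of 5 genes were higher (40%, against 10.4% of all genes with estradiol and 9.27% with ERα17p) and 0 lower (against 8.25% and 8.53%). PAIP2B, an inhibitor of that protein, was at 1.06 and 1.17, and PAIP1, a coactivator, at 0.86 and 0.97. PABPC1 was at -0.01 and -0.14, and PAIP2 at -0.17 and -0.30. Of 7 initiation helicases and recycling factors, MCTS1, the partner of DENR in reinitiation, passed the limit, at 0.73 with estradiol beside 0.27 with ERα17p. It made 14.3% of the list higher with estradiol, against 10.4% of all genes, and 0% were higher with ERα17p, against 9.27%. DDX3X, ABCE1 and DHX29 were at 0.37, 0.35 and -0.14 with estradiol and at 0.49, 0.39 and 0.25 with ERα17p.

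Of 5 elongation factor genes 2 were lower in both comparisons (40%, against 8.25% and 8.53% of all genes) and 0 higher (against 10.4% and 9.27%). EEF1A2, the tissue-restricted form of the factor that delivers aminoacyl-tRNA, was at -1.33 and -1.53, and EEF1D, a part of its exchange factor, at -0.98 and -0.63. EEF2, the translocase, was at -0.29 and -0.25, and its kinase EEF2K at 0.09 and -0.15. In the termination list GSPT2 was at 1.97 and 1.82, beside its paralogue GSPT1 at 0.11 and 0.10 and the release factor ETF1 at -0.16 and -0.22. It made 33.3% of the list higher in each comparison (against 10.4% and 9.27%), with 0 lower (against 8.25% and 8.53%). GSPT2 rests on 1 probe set, as do EEF1A2, PAIP2B and PPP1R15B among others, while GSPT1 has 6. The enzymes that make hypusine on eIF5A were within the limit, DHPS at -0.14 and -0.31 and DOHH at -0.33 and 0.12. So were the mitochondrial factors MTIF2 (-0.15 and -0.14) and MTIF3 (-0.01 and 0.16).

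**Figure D5:**
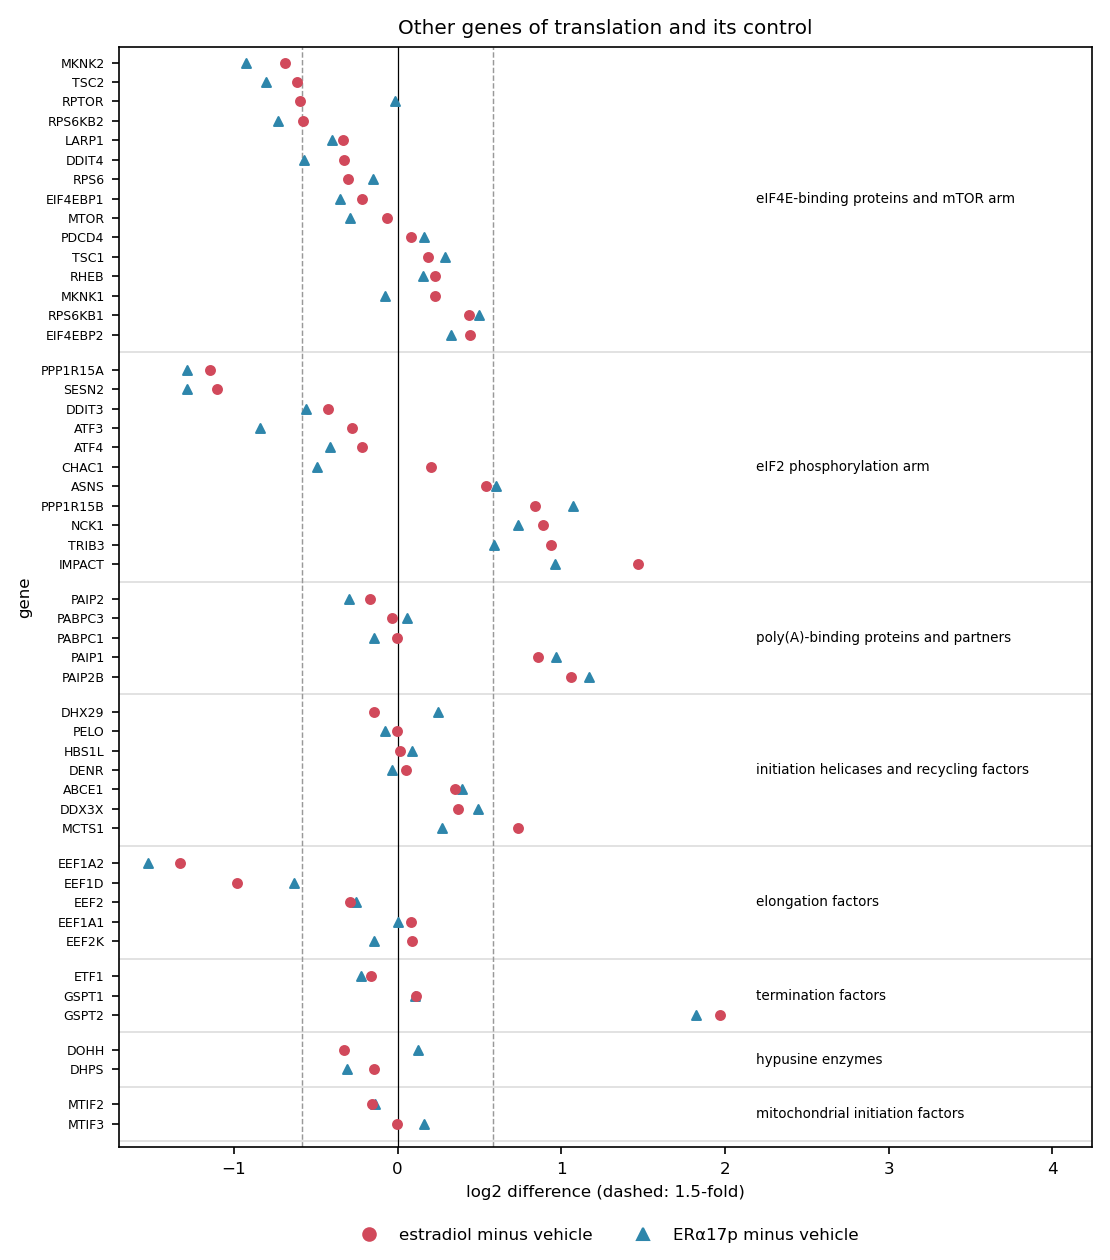
Log2 difference from vehicle of the 50 measured genes of 8 other translation lists, for estradiol (circles) and ERα17p (triangles), with dashed lines at 1.5-fold. GSPT2 lies farthest to the right, at 1.97 and 1.82, and EEF1A2 farthest to the left, at -1.33 and -1.53, each on 1 probe set.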

How the data were processed

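Total RNA of 3 samples was hybridised to Affymetrix arrays of 54675 probe sets, 1 array per group. The authors deposited log2 values made with RMA, per the submitters' processing notes, which give no version. The base of the logarithm is taken from RMA, and centring of each probe set is inferred from the values, not described in the sources used here: between 7.08% and 8.54% of values on each array are exactly 0, and the SD over probe sets is at most 0.494. It removes levels but leaves differences between arrays. Signal over background is therefore unknown, and a gene with a difference may be close to background.

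Of the probe sets, 41097 had 1 symbol in the platform's annotation, 1801 several (not used) and 11777 none given. A gene's value on an array was the median of its probe sets, and a comparison the difference of 2 gene values. With 1 array per group no test was possible; genes past 1.5-fold are counted, with 2-fold as an alternative. Member symbols were found in RefSeq for 47 of 47. Motifs were searched in the 250 bases before each start.

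The members and lists were chosen with earlier results of these data known. Named were genes past 1.5-fold, key subunits, and up to 4 genes per pathway list with the largest difference from vehicle; other members, EIF4EBP1, EIF4EBP2 and ATF4 were added for completeness, after their values were seen. Alternatives were the mean of probe sets, quantile normalisation, leaving out probe sets ending in _s_at or _x_at, the reference level as baseline, the 2-fold limit and agreement of all probe sets. The calculation was tested on simulated data. Python 3.11.15, pandas 2.3.3, NumPy 2.4.6 and matplotlib 3.10.9 were used.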

Additional observations from a re-analysis of the deposited data

How the results depend on the processing

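No paired analysis was possible because each group is 1 array. The medians of the 47 genes moved by less than 0.1 under every alternative they were computed for, within which they changed sign: the estradiol median, 0.04, was -0.03 with the mean of probe sets and -0.01 both after quantile normalisation and from the reference level, and the ERα17p median, -0.02, was 0.01 without _s_at and _x_at probe sets. With the deposited reference level in place of the vehicle array, 0 genes were higher and 0 lower in both comparisons. With the 2-fold limit the counts were 2 higher and 4 lower for estradiol and 1 and 4 for ERα17p. After quantile normalisation 3 genes in place of 5 were higher with estradiol. EIF2B5, EIF2AK3 and EIF5A2 were then within 1.5-fold of vehicle for estradiol (-0.48, 0.58 and 0.58), and EIF2B5, EIF5A2 and EIF5B for ERα17p (-0.52, 0.57 and -0.50). Leaving out probe sets ending in _s_at or _x_at, 39 genes were left, EIF5A not among them, and 10 were lower with ERα17p. EIF3K (-0.58 with estradiol) and EIF5A2 (0.43 with ERα17p) were then inside the limit. Beyond the reported setting, shares over all genes were computed for the reference level and the 2-fold limit alone. The counts under all other alternatives, including those that follow, therefore have no background beside them. They cannot be read as a result about the group. Requiring every probe set to differ in the called direction left 6 genes lower in each comparison and the counts of higher genes as they were. The median of probe set differences, added after seeing the data, kept every count. The cause of these changes was not tested. In the direct comparison the counts were 0 and 0 under every alternative run.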
